A study of Mus musculus with 24 samples.

Results

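Nuclei of the oligodendrocyte lineage with raised counts of Enpp6 or Bmp4 were selected from single-nucleus RNA libraries of mouse brain, a choice aimed at committed newly forming oligodendrocytes. A nucleus was selected when it held at least 3 unique molecular identifiers (UMIs) of Bmp4 and Enpp6 together and at least 2 of Sox10, Olig1 and Olig2 together. It could hold at most 2 UMIs of Pdgfra and at most 1 of Rbfox3, and none of Aqp4, Csf1r, Cldn5, Col1a2 or Dcn. These limits selected 1177 of 204925 nuclei, of which 903 came from the deep brain and 274 from the cortex. The values of the selecting genes are therefore a description and were not tested between cell types.

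Nuclei came from 12 mice of the strain B6.Pdgfbtm3Cbet, each of which gave 1 deep brain and 1 cortical library, so that 24 libraries were analysed. The 6 mutant mice carried 2 copies of the ret allele of Pdgfb (Pdgfb ret/ret), which lacks the motif that holds PDGF-B near the vessel wall. The 6 control mice carried 1 such copy and 1 wild-type copy (Pdgfb ret/wt), so the controls were not free of the allele. All mutants and 5 controls were female and control replicate 6 was male. Ages ran from 4 months and 7 days to 5 months and 18 days, with 3 mice of each genotype at 5 months or more. The allele is constitutive, with no promoter or Cre that would limit it to a cell type. The deep brain is where vessels of these mutants calcify, and the cortex was sampled as a region where they do not. The deep brain was dissected as pallidum, thalamus with hypothalamus, midbrain and pons, and the cortical sample was cerebral cortex with hippocampus.

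Oligodendrocytes arise throughout life from precursor cells that carry the PDGF receptor Pdgfra. On leaving the cycle a precursor passes through a short committed stage, marked by the G protein-coupled receptor Gpr17, the ligand Bmp4, the choline phosphodiesterase Enpp6 and the focal adhesion protein Tns3. It then either wraps axons with myelin, whose main proteins are encoded by genes such as Mbp, Mog, Mag and Mobp, or dies. Bone morphogenetic proteins such as Bmp4 signal through paired receptors and Smad proteins and are known to hold back oligodendrocyte maturation, and the Wnt effector Tcf7l2 is a known regulator of the transition to myelination. In the genome build mm10 Bmp4 lies on chromosome 14 (46383520-46390669), Enpp6 on chromosome 8 (46986887-47096762) and Tns3 on chromosome 11 (8431652-8664535).

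Nuclei were kept at over 500 and under 7000 genes when mitochondrial transcripts gave under 20% of their UMIs. Deep brain libraries kept 7715 to 11952 nuclei with a median depth of 3547 to 7314.5 UMIs, and cortical libraries 2328 to 11083 nuclei with a median of 804 to 8054. In the cortex 3 control and 4 mutant libraries had medians under 2000 UMIs, whereas no deep brain library did. Selected nuclei numbered 42 to 97 per deep brain library and 9 to 53 per cortical library, and their summed UMIs per library ran from 260846 to 486670 and from 70894 to 314467. Across libraries, 2 selected nuclei shared a barcode with another selected nucleus, and 24.0% shared one with any kept nucleus of another library, beside 23.4% of all kept nuclei. For comparison, 3171 precursor-gated nuclei (at least 3 UMIs of Pdgfra, at most 2 of Bmp4 and Enpp6) and 9973 mature-gated nuclei (at least 3 UMIs of Mog, Mag and Mobp together, at most 2 of Bmp4 and Enpp6, at most 2 of Pdgfra) passed the remaining limits. Median depth was 4653 UMIs in selected nuclei, 4953 in precursor-gated nuclei and 2916 in mature-gated nuclei.

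Most of the selected nuclei held no UMI of Gpr17 and none of Bmp4, whereas most held Tns3 and Enpp6, the latter by the rule. A UMI of Gpr17 was present in 238 of the 1177 nuclei (20.2%), of Bmp4 in 142 (12.1%) and of Tns3 in 633 (53.8%), and 137 (11.6%) held all 4 markers. The rule was met through Enpp6 alone by 1164 nuclei (98.9%), and 1035 (87.9%) had no Bmp4 UMI. Myelin transcripts were common, since 1068 nuclei (90.7%) held at least 3 UMIs of Mog, Mag and Mobp. By Gpr17 and by all 4 markers together the label of newly forming cells holds for a minority, and the whole set is called Enpp6-selected nuclei below.

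Free RNA can give UMIs in nuclei that do not make a transcript, and neurons were taken as a reference for it. Expression by neurons and doublets could add to these shares and were not separated from free RNA. Among 57058 nuclei with at least 3 UMIs of the neuronal splicing factor Rbfox3, with a median depth of 13134 UMIs, 1.24% held Gpr17, 0.333% Bmp4, 2.86% Enpp6 and 10.1% Tns3. Mog, Mag or Opalin was present in 22.0% of these neurons. Gpr17 was present in 70.8% of precursor-gated and in 1.79% of mature-gated nuclei. The share of Gpr17 in the Enpp6-selected nuclei therefore lay above both the neurons and the mature-gated nuclei and below the precursors.

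The presence of Gpr17 followed the number of Bmp4 and Enpp6 UMIs. Of 451 nuclei with exactly 3 such UMIs 2.00% held Gpr17, near the share in mature-gated nuclei, and of 273 nuclei with exactly 4 UMIs 4.76% did. The share was 13.3% of 143 nuclei with 5 UMIs, 85.1% of 201 nuclei with 8 or more, and 96.8% of 94 nuclei with 15 or more. Just outside the limit, 822 nuclei with exactly 2 UMIs met all other conditions and 3.04% of them held Gpr17. At the limit on Pdgfra, 4 selected nuclei held exactly 2 UMIs and 3 nuclei with exactly 3 were left out. Depth moved with these counts, with a median of 3881 UMIs in nuclei with exactly 3 and of 7585 in those with 8 or more.

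**Figure D1:**
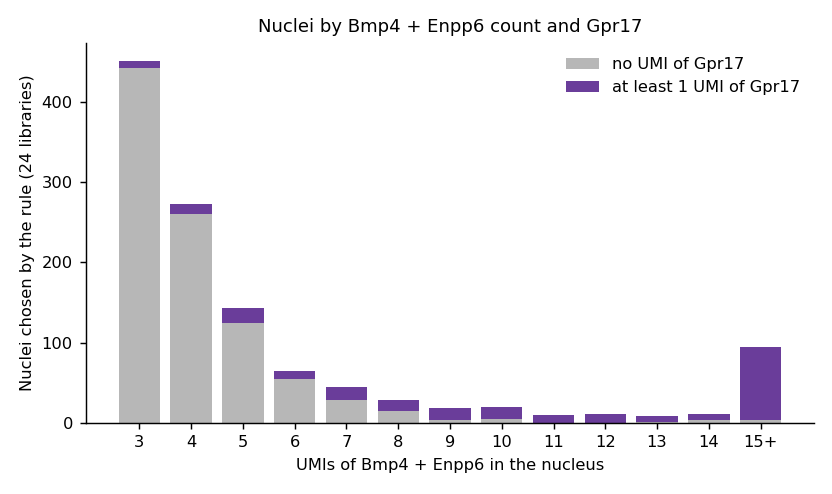
Enpp6-selected nuclei (y axis, number of nuclei) by their UMIs of Bmp4 and Enpp6 together (x axis, the last bar holding 15 or more), with nuclei that held a UMI of Gpr17 in purple and the others in grey. Of 451 nuclei with exactly 3 UMIs 9 held Gpr17, and of 94 nuclei with 15 or more 91 did.

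The Enpp6-selected nuclei were described in 2 sets, with and without a UMI of Gpr17, a division made after these values had been seen and used without a test. The 238 Gpr17-positive nuclei had a median depth of 7230.5 UMIs and a median of 8 UMIs of Gpr17 and 9 of Enpp6, and 58.8% of them held Bmp4 and 97.9% Tns3. Among them 134 (56.3%) held at least 3 UMIs of Mog, Mag and Mobp. The 939 Gpr17-negative nuclei had a median depth of 4198 UMIs and a median of 4 Enpp6 UMIs, and 2 of them held Bmp4, 42.6% Tns3 and 934 (99.5%) at least 3 UMIs of Mog, Mag and Mobp. Of these genes, Tns3, Mog, Mag and Mobp entered neither the rule nor the division. The Gpr17-negative nuclei are mostly myelin-bearing nuclei with Enpp6 counts at or above the limit.

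Selection of myelin-bearing nuclei moved with depth. Of 10728 nuclei with at least 3 UMIs of Mog, Mag and Mobp and no Gpr17, 0.684% of those with 1000 to 2000 UMIs were selected, 5.77% of those with 2000 to 4000, 19.5% of those with 4000 to 8000 and 20.1% of those with 8000 to 16000. The share that reached the limit of 3 thus rose with depth up to the bin of 4000 to 8000 UMIs. Beyond it the share was nearly flat, at 20.0% of nuclei with 16000 UMIs or more. The part of depth in the makeup of the set was not separated from that of the Enpp6 level. Scrublet called 40 of the 903 deep brain nuclei doublets (4.43%) and 15 of the 163 Gpr17-positive ones (9.20%), beside 5.91% of all kept deep brain nuclei.

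Levels are given in CPM, the UMIs of a gene scaled to a common total, from nuclei of the 12 deep brain libraries summed, and compare a gene between nuclei, not genes with each other. In Gpr17-positive nuclei Gpr17 stood at 1246 CPM, beside 326 in precursor-gated and 8.64 in mature-gated nuclei. Enpp6 stood at 1457 CPM in Gpr17-positive and 854 in Gpr17-negative nuclei, against 4.26 in precursor-gated and 95.2 in mature-gated nuclei. Tns3 was at 2494 CPM in Gpr17-positive nuclei, and in Gpr17-negative nuclei its 175 CPM lay close to the 158 of mature-gated nuclei. Bmp4 was at 250.6 CPM in Gpr17-positive nuclei and at 1.98 and 0.717 in precursor-gated and mature-gated nuclei.

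Levels in all selected nuclei are given by library for the 12 deep brain libraries. Enpp6, for which the rule sets a floor in these nuclei, ran from 723 to 1129 CPM (median 1041). Gpr17 ran from 178 to 460 CPM with a mean of 325 ± 77.2 (SD, n = 12). Bmp4 ran from 53.7 to 88.6 CPM in all libraries but mutant replicate 1, which stood at 5.24 CPM, and Tns3 was lowest in the same library at 204 CPM. That library held 3 Gpr17-positive nuclei, none of them with at least 3 UMIs of Mog, Mag and Opalin together. Cortical libraries, with fewer nuclei, were more spread, at 578 to 1660 CPM for Enpp6 and 0 to 1039 for Gpr17.

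**Figure D2:**
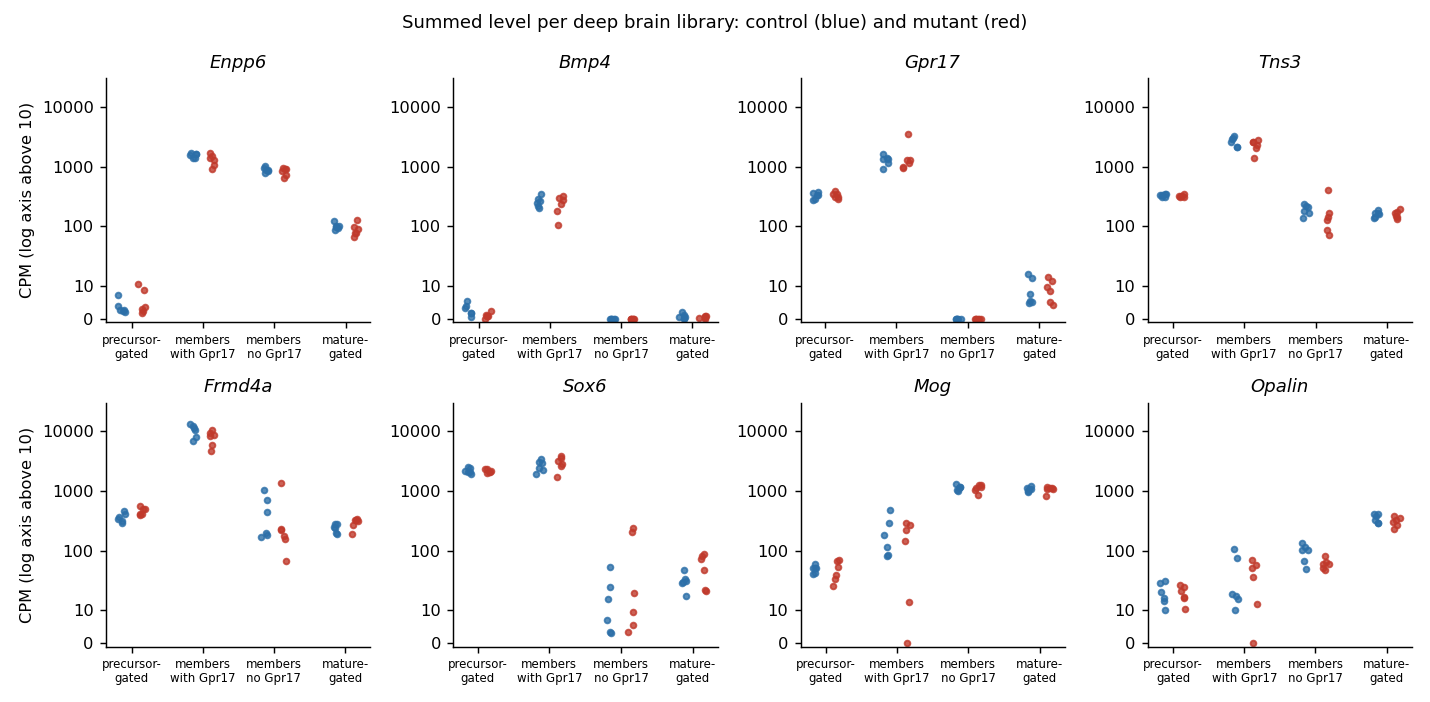
Level of 8 genes (y axis, CPM, logarithmic above 10 and linear below) in precursor-gated nuclei, in Enpp6-selected nuclei with and without Gpr17 (members with Gpr17, members no Gpr17) and in mature-gated nuclei, 1 point per deep brain library, controls in blue and mutants in red. Tns3 and Frmd4a peak in the nuclei with Gpr17, and Mog and Opalin are higher in those without, while the order of Enpp6, Bmp4 and Gpr17 is set in part by the rule and the division.

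Of a list of 16 genes of the committed stage, chosen with earlier results known, 13 entered neither the rule nor the division by Gpr17. All 13 were higher in Gpr17-positive nuclei than in Gpr17-negative, precursor-gated and mature-gated nuclei. The share of all genes highest in Gpr17-positive nuclei was not counted, so this count is a description. Of the 13, 8 were over 2-fold higher in all deep brain Enpp6-selected nuclei than in both precursor-gated and mature-gated nuclei, as were 49 of 3847 genes at 50 CPM or more (1.27%). Fyn, a kinase active in early myelination, stood at 3381 CPM in Gpr17-positive nuclei, 121 in Gpr17-negative, 257 in precursor-gated and 122 in mature-gated nuclei. Bcas1, a known marker of early myelinating cells, was at 4977 CPM against 719, 456 and 829.8 in the same order. Itpr2, a calcium channel of internal stores, was at 1686 CPM against 48.2, 470.2 and 28.9. The sum over the 13 genes was 16686 CPM in Gpr17-positive nuclei, 1482 in Gpr17-negative nuclei, 2123 in precursor-gated and 1399 in mature-gated nuclei. Between Gpr17-negative and mature-gated nuclei 3 of the 13 genes were over 2-fold higher in the former and 1 was over 2-fold lower. The 3 were Kif19a (18.5 against 4.00 CPM), Cnksr3 (166 against 69.7) and Rras2 (50.8 against 19.8). In mature-gated nuclei with at least 4000 UMIs they stood at 10.2, 126 and 39.1 CPM, and against those none of the 3 was over 2-fold higher.

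The genes that set the selected nuclei apart most, among 3852 considered, fell into the same 2 patterns. Frmd4a, a scaffold of cell polarity, averaged 9187 ± 2597 CPM in Gpr17-positive nuclei (SD, n = 12 libraries), against 410 ± 79.8 in precursor-gated and 265 ± 54.2 in mature-gated nuclei. The noncoding gene 9630013A20Rik averaged 2995 ± 1051 CPM against 25.6 ± 32.5 and 125 ± 107. Kif19a, a kinesin, Nhsl2, Epb41l2, a protein 4.1 family member of the membrane skeleton, Pik3r3, a regulatory subunit of PI3 kinase, and Tmem108 were likewise highest in Gpr17-positive nuclei, with no shared order among the other populations. A530053G22Rik, Klk6, a secreted serine protease, and Rab37, a small GTPase of vesicle traffic, were instead highest in the Gpr17-negative nuclei. Klk6 stood at 142 CPM there and at 6.38 in Gpr17-positive, 3.19 in precursor-gated and 27.2 in mature-gated nuclei.

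Within the Gpr17-positive nuclei the 71 from the deep brain with under 3 UMIs of Mog, Mag and Opalin together differed from the 92 with 3 or more in many of these genes. All 14 precursor genes other than Pdgfra were higher in the myelin-low nuclei, where Ptprz1, a receptor phosphatase of precursors, stood at 936 CPM against 325 in the myelin-high nuclei and Sox6, a transcription factor of precursors, at 4199 against 1847. The 13 committed-stage genes were divided, with 7 higher in the myelin-low and 6 in the myelin-high nuclei. Fyn, at 4276 CPM against 2874, and Neu4, a sialidase, at 576 against 234 were among the 7. Among the 6 were Tcf7l2 at 2139 CPM in myelin-high against 516 in myelin-low nuclei, Cnksr3 at 1435 against 115, Rras2, a small GTPase, at 471 against 30.9, and Prom1 at 327.5 against 0. Mbp, which did not enter this division, stood at 1149.6 CPM in the myelin-low and 6131 in the myelin-high nuclei. Bmp4 and Gpr17 went the other way, at 357 and 2319 CPM in the myelin-low nuclei and 190 and 637 in the myelin-high ones.

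The sum of the precursor genes was intermediate in Gpr17-positive nuclei and low in Gpr17-negative ones, although 2 of the genes, Tnr and Sox6, were highest in Gpr17-positive nuclei. Without Pdgfra, which the rule limits, the 14 precursor genes summed to 16768 CPM in Gpr17-positive, 577 in Gpr17-negative, 27951 in precursor-gated and 912 in mature-gated nuclei, with Tnr, an extracellular matrix glycoprotein, at 9795 CPM as the main part of the Gpr17-positive sum. Cspg4, the NG2 proteoglycan of precursors, was at 39.1 CPM in Gpr17-positive and 466 in precursor-gated nuclei. The 19 myelin genes, Mog, Mag and Mobp among them, summed to 13356 CPM in Gpr17-positive and 27262 in Gpr17-negative nuclei, beside 26311 in mature-gated nuclei. The mature-gated sum is set in part by the limit on Mog, Mag and Mobp that defined those nuclei. Myelin genes did not move as a block, since Opalin stood at 79.7 CPM in Gpr17-negative nuclei and 334.5 in mature-gated nuclei, and Mal, a lipid raft protein, at 533 and 1057. Apod, a lipocalin that binds lipids, and Anln, the actin-binding anillin, were higher in Gpr17-negative nuclei, at 1958 and 827 CPM against 1064 and 345.

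Among the transcription factors of the lineage, Myrf, which drives myelin genes, was at 195 CPM in Gpr17-positive, 200.2 in Gpr17-negative and 21.9 in precursor-gated nuclei. Nkx2-2 was highest in the myelin-low Gpr17-positive nuclei at 375 CPM against 81.9 in precursors, and Sox4 stood at 88.6 CPM in all Gpr17-positive nuclei against 25.3 in precursors. Hes5, a Notch target that acts in precursors, was at 2.39 CPM in Gpr17-positive nuclei and at 67.9 CPM in precursor-gated nuclei. The 16 cell cycle genes summed to 312 CPM in Gpr17-positive, 199 in Gpr17-negative, 547 in precursor-gated and 212 in mature-gated nuclei. Mki67, Top2a and Cenpf, which mark dividing cells, were at 0 in Gpr17-positive nuclei and at 14.5, 14.9 and 9.05 CPM in precursors. Ccnd1, the D-type cyclin of the precursor stage, was at 2.39 CPM against 84.9.

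Genes of the BMP pathway were described as ligands, receptors, inhibitors and targets. Of 5 ligands, Bmp4 selected the nuclei and was limited in the populations compared, so its excess is set in part by the rule. None of the other 4 was over 2-fold above both, and Bmp7, at 50.5 CPM in precursors, was at 0 in Gpr17-positive nuclei. The receptors Bmpr1a and Bmpr2 were at 81.4 and 116 CPM in Gpr17-positive nuclei, against 122 and 156 in precursors and 99.5 and 113 in mature-gated nuclei. The signal transducers Smad1, Smad4 and Smad5 stood at 85.4, 71.0 and 50.3 CPM. Of 9 inhibitors, Smad7, which blocks BMP and TGF-beta receptors, stood at 144 CPM in Gpr17-positive, 266 in Gpr17-negative and 27.7 in precursor-gated nuclei, and Twsg1 was at 14.4, while the other 7 were below 2 CPM in Gpr17-positive nuclei. The 9 inhibitors summed to 164 CPM in Gpr17-positive, 283 in Gpr17-negative, 60.8 in precursor-gated and 264 in mature-gated nuclei. The target genes Id1, Id2, Id3, Id4 and Hey1 together reached 23.9 CPM in Gpr17-positive nuclei and 38.6 in precursors.

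Of 18 Wnt genes, Tcf7l2 and its relative Tcf7l1 were over 2-fold above both other populations. Tcf7l1 stood at 232 CPM in Gpr17-positive nuclei against 30.3 in precursors and 12.0 in mature-gated nuclei. Axin2, a common Wnt target, was at 29.5 CPM in Gpr17-positive nuclei, 25.9 in precursors and 7.21 in mature-gated nuclei. Of the genes tied to survival or death of premyelinating cells, Tfeb, a lysosomal regulator, stood at 117 CPM in Gpr17-positive nuclei against 16.5 in precursors and 73.6 in mature-gated nuclei. The 16 cholesterol synthesis genes summed to 1220.0 CPM in Gpr17-positive, 1029 in Gpr17-negative, 787 in precursor-gated and 1000.1 in mature-gated nuclei.

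The Gpr17-negative nuclei were also compared with mature-gated nuclei of at least 4000 UMIs, with 10 CPM added to each level. That depth limit was not placed on the Gpr17-negative nuclei, whose lower quartile was 3380.5 UMIs. Both populations were alike in most genes, as 3834 of 4208 genes compared (91.1%) were within 2-fold. In Gpr17-negative nuclei 63 genes were over 2-fold higher and 311 lower. On the log2 scale with 10 CPM added, an order that depends on this constant, the largest excess was in A530053G22Rik, at 491 ± 232 CPM against 100.3 ± 55.7 (SD, n = 12). Next were Klk6 at 139 ± 36.3 against 31.0 ± 14.5 and Rab37 at 138 ± 38.1 against 32.0 ± 9.39. Further genes with an excess were Dlc1, a GTPase-activating protein, at 313 ± 174 against 101 ± 44.1, and Cyp27a1, a sterol hydroxylase, at 249.6 ± 47.0 against 82.0 ± 21.0. A deficit was seen in Synpr, a synaptic vesicle protein, at 33.7 ± 37.4 CPM against 458 ± 96.5, and Kcnip4, which binds potassium channels, was at 192 ± 110 against 1120.3 ± 504. Each of these was in the same direction in all 12 libraries. In mature-gated nuclei of any depth Synpr averaged 273 ± 57.0 CPM and Kcnip4 493 ± 179, so these deficits were smaller there. Dlc1 averaged 50.9 ± 18.8 CPM in those nuclei, so its excess was larger. In Gpr17-positive nuclei, 2976 of 3735 genes (79.7%) were within 2-fold of the higher of the precursor-gated and mature-gated levels. Of the others, 251 were over 2-fold above that higher level and 508 were below it, and likeness to the nearer population was not counted.

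Across 36 points, the selected, precursor-gated and mature-gated nuclei of the 12 deep brain libraries, the genes whose CPM ranked most like Enpp6 were Siah2 (Spearman correlation 0.94), Padi2 (0.93), Dnm3 (0.93), Cpox (0.93) and Klk6 (0.93), among 10047 genes. Those most like Bmp4 were Ust (0.87), Fyn (0.85), Gm10530 (0.84), Adam23 (0.84) and Ccser2 (0.83). The limits on Bmp4 and Enpp6 separate the selected from the other nuclei, so these ranks largely follow which of the 3 classes a point belongs to. The points also share libraries and the cell classes differ in depth, so these are descriptions.

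Markers of other cells were summed without the genes that the rule limits or excludes, which are Rbfox3, Aqp4, Csf1r, Cldn5, Dcn and Col1a2. The 7 remaining neuronal genes ran from 463 to 1414 CPM (median 876) in deep brain libraries and from 534 to 2299 (median 1077) in cortical ones. The 5 remaining astrocyte genes ran from 144 to 498 CPM in the deep brain and the 5 remaining microglial genes from 25.8 to 58.6, with Inpp5d at 0. The remaining endothelial and fibroblast genes and the mural genes had medians of 3.76, 0 and 5.67 CPM in deep brain libraries.

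The deep brain of mutants was compared with that of controls to ask whether the share of these nuclei changed with the genotype. In controls the Enpp6-selected nuclei made up 0.731% to 0.910% of kept nuclei (median 0.800%, mean 0.812% ± 0.0702, SD, n = 6), and in mutants 0.412% to 0.850% (median 0.683%, mean 0.645% ± 0.193, SD, n = 6). Mutant replicates 2 and 4 were lowest, at 0.412% and 0.418%, and the groups overlapped. The difference of -0.167 percentage points was not past the threshold (two-sided exact permutation test, p = 0.0736, adjusted p = 0.118 over the 8 share tests, the smallest p that splits of 6 against 6 can give being 0.00216). With nuclei thinned to 2000 UMIs and shallower ones left out it was -0.0104 points (exact permutation p = 0.738), and with a limit of at least 5 UMIs -0.0421 (exact permutation p = 0.262). The p-values of these alternatives were not adjusted. The unadjusted p was under 0.05 with a limit of at least 2 UMIs, at -0.347 points (exact permutation p = 0.0411). It was also under 0.05 with Gpr17 or Tns3 also required, at -0.105 points (exact permutation p = 0.0368). The difference was -0.256 points among mice of 5 months and -0.0793 among mice of 4 months, with 3 mice of each genotype and no test. Without mutant replicate 5 or 6 the unadjusted exact p was 0.0303 or 0.0390, so whether the unadjusted p fell under 0.05 depended on the limits and on single libraries.

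The other nuclei of the lineage also reached lower in mutants in the deep brain, with precursor-gated nuclei at 1.45% to 2.29% of kept nuclei in mutants and 1.72% to 2.62% in controls and mature-gated nuclei at 3.93% to 6.72% and 6.13% to 8.47%. As a percentage of selected and precursor-gated nuclei together, the selected nuclei were 25.4% ± 4.27 in mutants and 27.1% ± 2.16 in controls (SD, n = 6), which did not differ past the threshold (exact permutation p = 0.433, adjusted p = 0.577). Gpr17-negative selected nuclei were 7.10% to 9.69% of themselves and mature-gated nuclei in mutants and 7.18% to 9.50% in controls.

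In the cortex the selected nuclei were 0.172% to 0.736% of kept nuclei in mutants with a median of 0.278%, and in controls 0.144% to 0.709% with a median of 0.333%, without a difference past the threshold (exact permutation p = 0.753, adjusted p = 0.771). As a percentage of themselves and precursor-gated nuclei they were 39.0% ± 9.42 in mutants and 29.0% ± 6.66 in controls (SD, n = 6). Mutants ran from 28.2% to 50% and controls from 17.8% to 35.1%, and the 10.0-point difference was not past the threshold after adjustment (exact permutation p = 0.0606, adjusted p = 0.118). With nuclei thinned to 2000 UMIs it was 2.64 points (exact permutation p = 0.409), and with a limit of at least 5 UMIs 5.91 (exact permutation p = 0.169). With Gpr17 or Tns3 also required it was 11.0 points (exact permutation p = 0.00649). In libraries with medians under 2000 UMIs it was 12.8 points (4 mutants and 3 controls) and in the deeper ones 1.97 points (2 mutants and 3 controls), and the part of depth was not tested. Without mutant replicate 5 or 6 the exact p was 0.0346 or 0.0260, and without control replicate 2 or 3 it was 0.0476. The difference of the genotype effects between regions was not past the threshold either, with -0.127 points of kept nuclei (exact permutation p = 0.379) and -11.7 points of the lineage share (exact permutation p = 0.0844).

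Between regions of the same mouse the share of kept nuclei was higher in the deep brain in 12 of 12 mice, at 0.729% ± 0.164 against 0.379% ± 0.222 (SD, n = 12). The exact sign-flip permutation test over mice gave p = 0.000488, the smallest it can give, and an adjusted p of 0.00391. The direction of this difference depended on depth limits. Among nuclei with at least 2000 UMIs and no thinning the shares were 0.800% and 0.913%, a difference of -0.113 points (exact permutation p = 0.458). Of the selected nuclei 1 of 169 in cortical mutants and 0 of 105 in cortical controls lay under 2000 UMIs. With every nucleus thinned to 2000 UMIs and shallower nuclei left out, 150 deep brain and 47 cortical nuclei were selected, the shares were 0.134% and 0.120%, and the deep brain was higher in 7 of 12 mice (difference 0.0142 points, exact permutation p = 0.491). Thinning left out 5492 of 60354 control and 6783 of 64604 mutant nuclei of the deep brain, and 14824 of 32253 control and 25911 of 47714 mutant nuclei of the cortex. As a percentage of themselves and precursor-gated nuclei, selected nuclei were 26.3% ± 3.34 in the deep brain and 34.0% ± 9.37 in the cortex (exact permutation p = 0.0430, adjusted p = 0.118), and 14.5% and 13.7% after thinning (p = 0.666 by the same exact test).

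**Figure D3:**
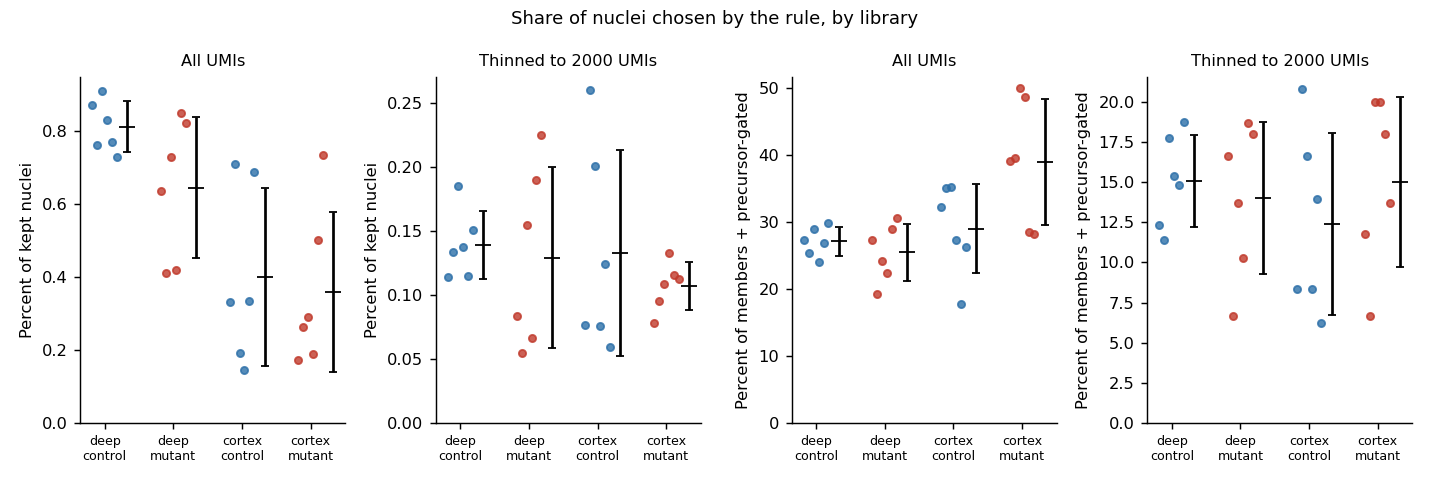
Enpp6-selected nuclei as a percentage of kept nuclei (left pair of panels) and of selected plus precursor-gated nuclei (right pair), with all UMIs and after thinning to 2000 UMIs per nucleus (y axes, percent, on different scales), 1 point per library, controls in blue, mutants in red, bars for the mean and SD of 6 libraries. Deep brain mutants run from 0.412% to 0.850% of kept nuclei and controls from 0.731% to 0.910%, and the gap between regions in the first panel is not seen in the thinned one.

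The stage makeup of the deep brain nuclei was compared between genotypes with genes that the rule did not use. Gpr17 was present in 4.55% to 24.0% of selected nuclei in mutants (mean 18.7% ± 7.36, SD, n = 6) and 10.8% to 22.7% in controls (17.6% ± 4.28, SD, n = 6), without a difference past the threshold (exact permutation p = 0.771, adjusted p = 0.771). Mog, Mag or Opalin was present in 90.7% to 96.7% of nuclei in mutants (94.2% ± 2.19) and 95.4% to 100% in controls (96.7% ± 1.70, SD, n = 6 each). The difference of -2.50 points was not past the threshold (exact permutation p = 0.0541, adjusted p = 0.118). Without mutant replicate 6, control replicate 3 or control replicate 5 its exact p was 0.0260, 0.0476 or 0.0476, and with nuclei thinned to 2000 UMIs the difference was -1.49 points.

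For genes, counts of the selected nuclei were summed per library and mutants were compared with controls by edgeR's quasi-likelihood test with Benjamini-Hochberg adjustment. In the deep brain 5 of 6473 genes passed the threshold of 0.05 (0.0772%), and all 5 were higher in mutants. They were Alk, a receptor tyrosine kinase, Galnt13, which starts O-linked glycosylation, Rora, a nuclear receptor, C4b, complement component 4, and Cacna1a, the pore subunit of P/Q-type calcium channels. Values beside this test are CPM over the genes tested with TMM scaling. The SE given with an edgeR log2 fold change is its absolute value divided by the square root of the test's F statistic. It is not a standard error estimated by the model.

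Alk (chromosome 17, 71868972-72604627) ran from 85.7 to 191 CPM in mutants, with a median of 141, and from 31.4 to 83.6 in controls, with a median of 45.1. The groups did not overlap, and the log2 fold change was 1.47 (SE 0.23, edgeR adjusted p = 0.0142). Galnt13 (chromosome 2, 54436317-55118309) ran from 171 to 324 CPM in mutants, with a median of 258, and from 55.3 to 155 in controls, with a median of 113, with a log2 fold change of 1.24 (SE 0.20, edgeR adjusted p = 0.0142). C4b (chromosome 17, 34728380-34743882), which has a near-identical neighbour in the mouse genome so that reads shared by both could not be assigned, ran from 48.4 to 133 CPM in mutants, with a median of 82.8, and from 6.19 to 42.9 in controls, with a median of 22.9. Its log2 fold change was 1.79 (SE 0.33, edgeR adjusted p = 0.0377). No mutant library reached down to a control library for any of these genes. They were picked by their low p, so this gap adds no support to the test. Cldn14 and Cnksr2, which did not pass the threshold, had groups without overlap too. The share of all 6473 genes without overlap was not counted.

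Rora (chromosome 9, 68653786-69388246) ran from 591.5 to 993 CPM in mutants, with a median of 737, and from 361 to 586 in controls, with a median of 390.1, and was thus higher in each mutant by a small margin at its edge. The log2 fold change was 0.80 (SE 0.14, edgeR adjusted p = 0.0377). Cacna1a (chromosome 8, 84388440-84640246) ran from 151 to 274 CPM in mutants, with a median of 167, and from 65.4 to 127 in controls, with a median of 98.6, again without overlap. Its log2 fold change was 0.97 (SE 0.18, edgeR adjusted p = 0.0377). Since the groups did not overlap over all libraries, mutants also lay above all controls for each of the 5 genes within mice of 4 months and of 5 months. With 3 mice of each genotype per age, this split adds no further support. The ratio of the mean CPM (without TMM scaling) of mutants to that of controls was 1.63 at 4 months and 4.54 at 5 months for Alk, and between 1.64 and 3.87 for the other 4 genes. Whether these ratios differ with age was not tested.

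**Figure D4:**
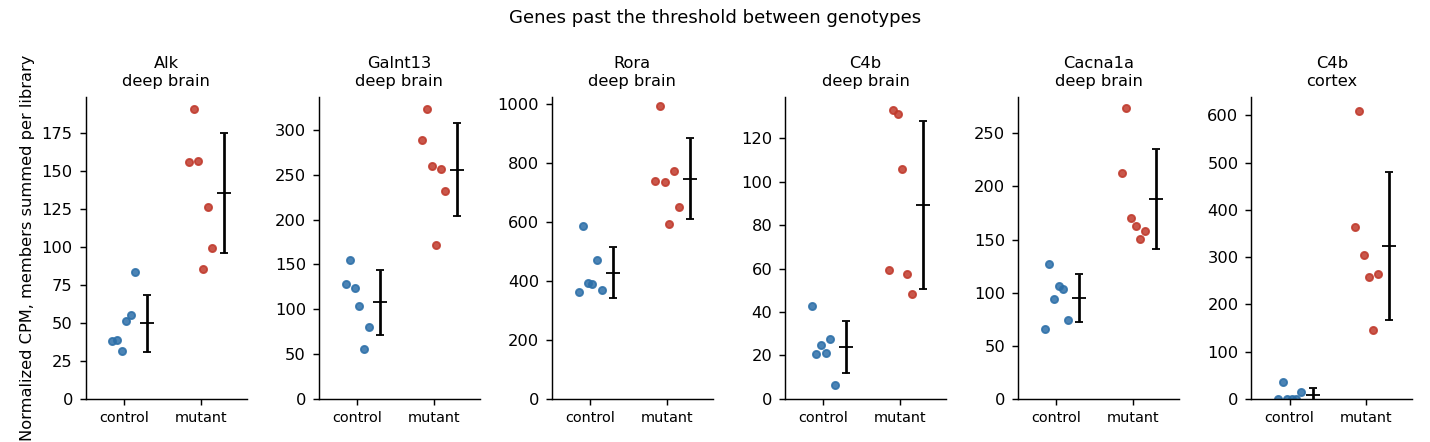
Levels of the genes past the threshold between genotypes, 5 in deep brain and C4b also in cortical Enpp6-selected nuclei (y axes, normalized CPM per library, on different scales), 1 point per library, controls in blue and mutants in red, with bars for the mean and SD of 6 libraries. For Alk the mutants lie between 85.7 and 191 CPM and the controls between 31.4 and 83.6, and no panel shows overlap of the groups. The genes were picked by their low p, which favours such gaps.

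These calls changed with single libraries and with the limit of the rule. With at least 5 UMIs of Bmp4 and Enpp6, 331 of the 903 nuclei and 3463 tested genes were left. There 0 genes passed, 3 of the 5 being tested, and the part of the smaller number of nuclei was not tested. DESeq2 called 4 of the 5 and gave C4b no adjusted p. With both regions of a mouse summed Rora did not pass (edgeR adjusted p = 0.0616) and the other 4 did. Leaving out 1 mouse at a time, no gene passed the threshold without control replicate 3, control replicate 4, mutant replicate 2 or mutant replicate 3, while 3, 9, 2 and 1 genes passed without control replicates 1, 2, 5 and 6 and 5, 5, 4 and 7 without mutant replicates 1, 4, 5 and 6. Alk passed in 8 of the 12 repeats and Cacna1a in 3, and all log2 fold changes stayed positive, from 1.36 to 1.66 for Alk and from 0.71 to 0.91 for Rora.

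The 5 genes were also given for both sets of nuclei, by levels summed over the libraries of a genotype. Alk stood at 158 CPM in mutants and 58.9 in controls in Gpr17-negative nuclei, and at 21.7 and 8.56 in Gpr17-positive nuclei, where the totals were 12 and 6 UMIs, so mutants were higher in both sets. Cacna1a was at 172 and 62.2 CPM in Gpr17-negative nuclei and at 156 and 154 in Gpr17-positive ones. Galnt13 was at 258 and 87.7 CPM and at 168 and 137, and C4b at 96.9 and 27.8 CPM and at 18.1 and 11.4. Rora was at 690.0 and 383 CPM in Gpr17-negative nuclei and at 662 and 438 in Gpr17-positive nuclei, higher in mutants in both sets. Whether the genotype effect differed between the sets was not tested.

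Without Rbfox3, the neuronal markers summed to 626 to 1233 CPM in mutants, with a median of 876, and 463 to 1414 in controls, with a median of 872, in these deep brain nuclei. Without Csf1r, the microglial markers summed to 25.8 to 58.6 and 40.1 to 52.5 CPM, and both lists overlapped between genotypes.

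In mature-gated nuclei of the same 12 libraries the same 5 genes were higher in mutants and passed the edgeR threshold, with log2 fold changes of 1.92 for Alk, 1.88 for C4b, 1.02 for Galnt13, 0.91 for Rora and 0.84 for Cacna1a, among 85 of 11599 genes called. In precursor-gated nuclei none of the 5 passed, with log2 fold changes of 0.37 for Alk (edgeR adjusted p = 0.310), 0.30 for C4b, 0.02 for Rora, 0.01 for Cacna1a and -0.00030 for Galnt13, among 8 of 10470 genes called. All 3 fits use the same mice.

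Of the committed-stage markers that the rule did not use, neither passed the threshold between genotypes in the deep brain. Log2 fold changes were -0.20 for Gpr17 (SE 0.18, edgeR adjusted p = 0.899) and -0.22 for Tns3 (SE 0.25, edgeR adjusted p = 0.938). Enpp6 and Bmp4, whose counts selected the nuclei, had log2 fold changes of -0.14 and -0.11, given without a test because the selection constrains them. The genes next in order, none past the threshold, were Cldn14, a tight junction claudin, with a log2 fold change of 0.74, Clgn, a chaperone, with 1.58, Cnksr2, a scaffold of synapses, with -0.95, Grik4, a kainate receptor subunit, with 0.81, and Gm35438 with 0.95. Their edgeR adjusted p ran from 0.0512 to 0.0928.

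Gene groups of the lineage were described by their counts in the same fit. Lists that hold a selecting gene are in part set by the rule, as the committed-stage list is by Enpp6 and Bmp4. Its 15 genes in the fit, Enpp6 and Bmp4 among them, had a median log2 fold change of -0.15 beside -0.0028 over all 6473 genes. Of these, 3 were above 0, Cnksr3, Itpr2 and Rras2. None of its genes that the rule did not use passed the threshold. The 19 myelin genes had a median of -0.15 with 3 above 0, and the 11 precursor genes tested a median of -0.15 with 4 above 0, none past the threshold. None of 7 BMP receptors and Smads passed, with a median of 0.01, and Smad7 was at 0.14. None of the 10 Wnt genes (median -0.01), the 16 cholesterol genes (median -0.0036), the 11 fatty acid genes (median 0.0073) or the 4 cell cycle genes (median 0.04) tested passed. In the list of 15 stress and interferon genes 5 were tested and C4b alone passed. Of the neuronal markers 4 were tested and none passed, with a median of 0.09.

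In cortical nuclei 1 of 2146 genes passed the edgeR test between genotypes (0.0466%), and it was C4b. In mutants C4b ran from 145 to 609 CPM (median 284), and in controls from 0 to 35.6 with 4 of 6 libraries at 0, so the groups did not overlap. The log2 fold change was 4.93 (SE 0.61, edgeR adjusted p = 0.00153). This fold change, and the SE computed from it, depend on the small constant added to counts. The UMIs themselves were 219 in mutants and 4 in controls, a ratio of 31.6 per UMI sequenced with a counting interval of 12.2 to 117 at 95%. The ratio was 3.33 (2.46 to 4.57) in deep brain selected nuclei and 10.4 (8.03 to 13.8) in mature-gated cortical nuclei, intervals that cover counting error only.

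The 5 microglial markers other than Csf1r, which the rule excludes, summed to 15.6 to 73.0 CPM in cortical mutants (median 21.2) and 38.1 to 112 in controls (median 79.0). C4b passed without each cortical mouse in turn, with log2 fold changes of 4.55 to 6.29. With at least 5 UMIs of Bmp4 and Enpp6, 0 of 1717 cortical genes passed by edgeR over 9 libraries, 30 of them at an unadjusted p under 0.05, and C4b was below the filter and not tested. In Gpr17-negative cortical nuclei C4b stood at 296 CPM in mutants and 9.79 in controls, from 201 and 4 UMIs. In Gpr17-positive cortical nuclei there were 18 UMIs in mutants and 0 in controls, from 51 and 24 nuclei. The other genes with the lowest p were Reep3, Stmn1, Pam, Aplp2, Grik4, Grm7, Zc3h13, Slc22a17 and Pard3, with an edgeR adjusted p of 0.928. Their log2 fold changes ran from -1.23 for Stmn1, a regulator of microtubules, to 0.74 for Zc3h13. Among them, the groups did not overlap for Pam and Aplp2, so a gap between groups is not particular to C4b. Of the deep brain genes, Cacna1a had a log2 fold change of 1.41, Rora of 0.57 and Galnt13 of 0.53 in the cortex, none past the threshold. Alk, below the filter there, was at 113 CPM in mutants and 24.5 in controls.

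A test of the difference between the genotype effects in the deep brain and the cortex called 0 of 5927 genes by edgeR (0%) and 0 by DESeq2. By edgeR 227 genes had an unadjusted p under 0.05. This fit had no block for the mouse and treated the 2 libraries of a mouse as independent. With the mouse as a block edgeR also called 0 of 5927 genes. The values that follow are from the fit without the block. For C4b the deep brain effect minus the cortical effect was -3.24 on the log2 scale (SE 0.87, edgeR unadjusted p = 0.000911, edgeR adjusted p = 0.999), so its larger fold in the cortex was not shown to differ from that in the deep brain after adjustment. The lowest adjusted p by edgeR was 0.824, for Glmn (-1.52) and Egfem1 (2.73).

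Between the deep brain and the cortex of the same mice, 27 of 4840 genes passed the edgeR test (0.558%), of which 16 were higher in the deep brain (0.331%) and 11 in the cortex (0.227%). The mouse was a block in this fit. With at least 5 UMIs of Bmp4 and Enpp6 the fit held 18 of the 24 libraries and 2825 genes. There 0 genes passed, and 11 of the 20 genes named here were tested. Genes higher in the deep brain included A530053G22Rik (log2 fold change 2.01, SE 0.34), Resp18, a secretory granule protein (2.01, SE 0.38), Dlc1 (1.84, SE 0.33), the transmembrane protease Tmprss5 (1.49, SE 0.24) and Rab37 (1.33, SE 0.23). A530053G22Rik ran from 181 to 811 CPM in deep brain libraries (median 329.8) and from 6.86 to 747 in cortical ones (median 55.7), and was higher in the deep brain in 12 of 12 mice although the ranges overlapped. Its edgeR adjusted p was 0.0101.

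Most of the genes named as higher in the deep brain were also higher in Gpr17-negative than in mature-gated deep brain nuclei. In Gpr17-negative nuclei A530053G22Rik was at 482 CPM in the deep brain and 161 in the cortex, and in mature-gated nuclei at 85.1 and 27.1. In Gpr17-negative nuclei Dlc1 was at 319 CPM in the deep brain and 79.1 in the cortex, and Rab37 at 139.5 and 57.1. In mature-gated nuclei Dlc1 was at 49.2 and 34.4 CPM and Rab37 at 25.7 and 17.7. In the deep brain alone, Tmprss5 was at 97.9 CPM in Gpr17-negative and 31.0 in mature-gated nuclei, Tox at 118 and 42.4, and Rapgef4 at 131 and 49.5, whereas Resp18 was lower, at 63.3 and 91.5. Further genes higher in the deep brain were 1700063D05Rik (1.14), C530008M17Rik (1.07), E330020D12Rik (1.02), Rapgef4, an exchange factor driven by cyclic AMP (0.98), and Tox, a nuclear protein of the HMG-box family (0.95), each higher in 12 of 12 mice, with edgeR adjusted p from 0.0135 to 0.0345.

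Genes higher in the cortex were Cck, a neuropeptide (log2 fold change -1.96, SE 0.32), Cacna2d1, an auxiliary calcium channel subunit (-1.42, SE 0.20), Grin2a, an NMDA receptor subunit (-1.40, SE 0.25), Cnksr2 (-1.24, SE 0.21) and Dpp10, a potassium channel partner (-1.19, SE 0.24). Cck ran from 41.8 to 235 CPM in cortical libraries (median 114) and from 0 to 53.4 in deep brain libraries (median 31.2), and was higher in the cortex in 12 of 12 mice (edgeR adjusted p = 0.00932). The list went on with Olfm1 (-1.02), the prohormone protease Pcsk2 (-0.95), Snap25, a synaptic fusion protein (-0.84), Ctsd, a lysosomal protease (-0.81), and the amino acid transporter Slc38a2 (-0.78), in 10 to 12 of 12 mice.

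Neuronal transcripts were present in the selected nuclei of both regions. The vesicular glutamate transporter Slc17a7 was at 52.5 CPM in cortical and 13.1 in deep brain selected nuclei, and Slc17a6, its subcortical relative, at 10.7 and 22.9. Mature-gated nuclei had the same order, with Cck at 140.2 CPM in the cortex and 47.4 in the deep brain, and Grin2a at 153 and 56.5. The part of neuronal RNA in these differences was not tested. Apart from the selecting genes, which were not judged by a test, none of the lineage lists had a member past the threshold between regions. Snap25 was the only one of 3 neuronal markers tested that passed. Of the markers the rule did not use, log2 fold changes between regions were -0.13 for Gpr17 (SE 0.43, edgeR adjusted p = 0.966) and 0.15 for Tns3 (SE 0.37, edgeR adjusted p = 0.948). For the selecting genes Enpp6 and Bmp4 they were 0.06 and -0.40, without a test. Without control replicate 6, mutant replicate 1, mutant replicate 2 or mutant replicate 4 the count of genes past the threshold was 16, 15, 17 or 15.

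**Figure D5:**
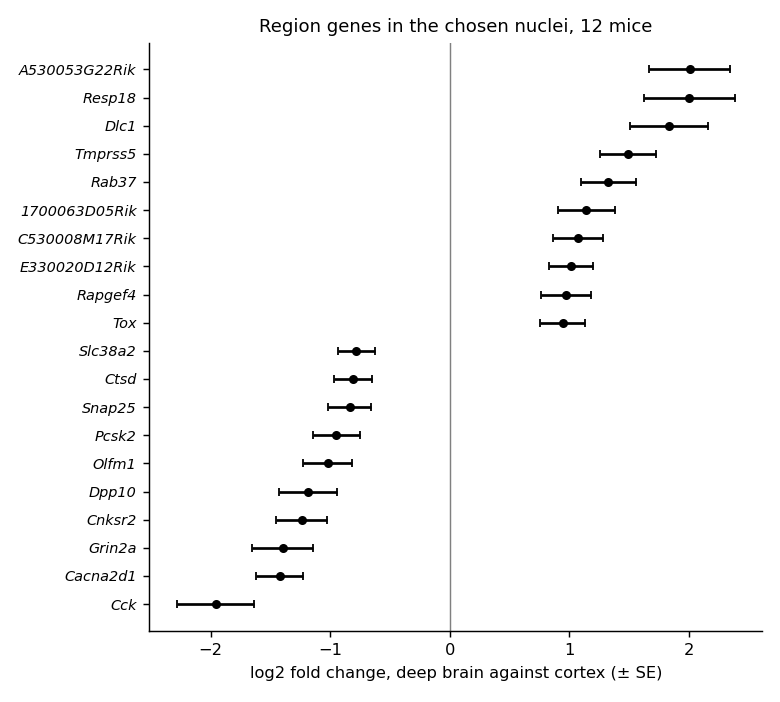
Log2 fold changes between the deep brain and the cortex in Enpp6-selected nuclei (x axis, positive where the deep brain is higher), for the 10 genes of each direction with the largest change past the threshold. The SEs shown are the absolute fold change divided by the square root of the F statistic. A530053G22Rik and Resp18 are at 2.01 and Cck is at -1.96.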

How the data were processed

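Nuclei were profiled with the 10x 5′ kit, version 2. Per the labels and the submitters' processing notes, the authors used bcl2fastq 2.20.0.422 and Cell Ranger 5.0.1 with the mm10 build and deposited, for each library, raw UMI counts per gene and barcode, without normalization. Here nuclei were filtered and selected as stated above, and the raw counts of a population were summed per library, since nuclei of a mouse are not replicates. The members and the gene lists were chosen with earlier results of these data known, and the division by Gpr17 after its values had been seen.

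Genes were tested on summed counts with edgeR 4.0.16 (quasi-likelihood test, low-count filter, TMM scaling, Benjamini-Hochberg threshold 0.05) in R 4.3.3, with DESeq2 1.42.0 as an alternative. Libraries needed at least 5 selected nuclei, and all had them. The region test had the mouse as a block, because both regions came from the same animal. The interaction test of region and genotype had no such block, except as an alternative. Shares were compared with two-sided exact permutation tests over mice (scipy 1.17.1) and adjusted over 8 tests. The p-values of share alternatives were not adjusted. P-values reflect the spread between mice, but in the interaction test the spread between libraries. Intervals cover counting error only.

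Named genes were the markers, listed genes that passed, the 10 with the largest change in each direction past the threshold (with fewer than 10 past it, the 10 with the lowest p), 25 leading genes in the description and 5 each most like Enpp6 and Bmp4. Further genes named in descriptions of the sets with and without Gpr17 were chosen after their values were seen. Doublets were not removed. Scrublet (scanpy 1.11.5) was used in the deep brain alone, because it called 0.0332% to 50% of nuclei in cortical libraries. The deep brain gene test was checked on counts simulated from the fitted dispersions. It recovered 154 of 200 genes changed by 1 on the log2 scale among 6209 genes, and another 12 calls were false. With 200 genes changed at once the adjusted threshold is easier to pass than in the data, where 5 genes passed. The recovery is therefore not the power of the test in the data. Positions are from GENCODE M21. Alternatives changed the UMI limit, depth, doublets, the mitochondrial limit, the count filter, scaling, the tool, the block and the libraries.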

Additional observations from a re-analysis of the deposited data

Results flagged for a closer look

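Among the 38 groups of 6 libraries that were looked at, 2 had a library far from the others by Dixon's criterion, which chance meets in about 1 group in 20. Gpr17 was present in 4.55% of the Enpp6-selected nuclei of deep brain mutant replicate 1, the lowest of the 6 mutants, whose median was 20.8%. The same library was lowest for Bmp4, Tns3 and Enpp6. Mog, Mag or Opalin was present in 100% of the selected nuclei of deep brain control replicate 6, the highest of the 6 controls.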

How the results depend on the processing

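Under the alternatives that changed 1 setting for all mice, 52 values of the main comparisons kept their direction and side of the threshold (counts stayed within 1.5 times), 5 changed direction, 4 came to pass the threshold, 2 ceased to pass it and 11 counts moved by over 1.5 times. Causes of the changes below were not tested. Mutant minus control, in percentage points of kept nuclei, was -0.347 in the deep brain with at least 2 UMIs (exact permutation p = 0.0411) and -0.105 with Gpr17 or Tns3 also required (exact p = 0.0368), but -0.0104 after thinning and -0.0421 with at least 5 UMIs, neither past the threshold. In the cortex it was 0.265 among nuclei with at least 2000 UMIs and 0.0264 with Gpr17 or Tns3 required. Deep brain minus cortex was 0.0142 after thinning and -0.113 with at least 2000 UMIs. As a share of selected and precursor-gated nuclei, mutant minus control was 0.138 in the deep brain with at least 5 UMIs and in the cortex 11.0 with Gpr17 or Tns3 required (exact permutation p = 0.00649) but 2.64 after thinning, and deep brain minus cortex was -7.24 with at least 2 UMIs and 0.832 after thinning.

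Genes past the threshold in the deep brain numbered 8 by DESeq2 (with 4 of the 5 named genes), 46 without the count filter, 0 with at least 5 UMIs and 9 without Scrublet doublets. In the cortex they numbered 37 without the filter and 0 with at least 5 UMIs, between regions 54 by DESeq2, 179 without the filter and 0 with at least 5 UMIs, and in the interaction 7 without the filter. Scrublet was not run for cortical or region comparisons. Log2 fold changes of some markers changed sign, those of the selecting genes Enpp6 and Bmp4 being given without a test. With both regions of a mouse summed, Tns3 was at 0.075 and Bmp4 at 0.092 in the deep brain comparison. In the cortex Enpp6 was at 0.051 without the filter and Gpr17 at -0.17 with at least 10 nuclei. Between regions Enpp6 was at -0.15 and Tns3 at -0.20 with at least 5 UMIs, and Gpr17 was at 0.14 by DESeq2. Neither Tns3 nor Gpr17 passed the threshold in these fits.

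The labels give mice numbered 1 to 4 the same age in both genotypes. Mutant replicate 5 had the age of control replicate 6, and mutant replicate 6 that of control replicate 5. No shared litter, batch or day is named, and replicate numbers were not taken to pair mice across genotypes. The correlations and the replicate block below used equal numbers, so replicates 5 and 6 were not matched by age. Same-numbered deviations correlated at -0.0426 to 0.135 in the deep brain and -0.317 to 0.754 in the cortex. With the replicate block, 12 genes passed in the deep brain, and the cortical difference of 10.0 points had an exact p of 0.0313, the smallest it can give, with mutants higher in all 6 pairs. With no replicate block for the mouse, Enpp6 was at -0.019 and Tns3 at -0.29 between regions.

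Leaving out 1 mouse at a time, mutant minus control ran from -0.208 to -0.121 points of kept nuclei in the deep brain and -0.116 to 0.0212 in the cortex (positive without control replicate 2 or 6), and deep brain minus cortex from 0.316 to 0.377. The lineage share ran from -2.66 to -0.390 in the deep brain, 7.79 to 12.2 in the cortex and -9.24 to -6.03 between regions. There the unadjusted exact permutation p of 0.0430 (adjusted p = 0.118) rose above 0.05 without any of mutant or control replicates 1 to 4. The Gpr17 share ran from -0.268 (without control replicate 6) to 3.92 and the Mog, Mag or Opalin share from -2.98 to -1.79. Genes past the threshold numbered 0 to 9 in the deep brain, 1 in the cortex, 15 to 36 between regions and 0 in the interaction. Markers that changed sign ran from -0.21 to 0.15 (Bmp4, deep brain), -0.25 to 0.12 (Enpp6, cortex), -0.33 to 0.30 (Gpr17, cortex), -0.00059 to 0.14 (Enpp6, regions), -0.34 to 0.10 (Gpr17, regions) and -0.045 to 0.34 (Tns3, regions). Cortical libraries held as few as 9 selected nuclei.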
